A study of Mus musculus with 16 samples.

Results

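The mitochondrial genome of the mouse holds 37 genes, and all 37 are listed in the gene tables of this study. They are 13 coding genes, 2 ribosomal RNA (rRNA) genes and 22 transfer RNA (tRNA) genes, found by their symbols, which begin with mt-, among the 55487 genes listed. RNA was measured in 16 organoid lines grown from pancreatic ductal adenocarcinomas of the KPC mouse model. Of these, 9 lines came from metastases and 7 from primary tumors of the same 6 mice, all of strain C57BL6/J. The metastasis lines came from the peritoneum (M3P of mouse 2, M6 of mouse 3 and M10 of mouse 4), the liver (M1 of mouse 1 and M28 of mouse 6), the diaphragm (M15 of mouse 5 and M29 of mouse 6), the lung (M16 of mouse 5) and the ovary (M30 of mouse 6). The tumor lines were T3, T6, T19, T23 and T34 of mice 1 to 5, in that order, and T69a and T69b of mouse 6. KPC is the labels' name for the mouse model, and the labels used here give neither its alleles nor the ages of the animals. No line was treated, all were grown in Matrigel domes with the same medium, and each line is 1 library. Mice 1 to 4 have 1 line of each kind. The error of the comparison of metastasis with tumor lines therefore rests largely on how their difference varies between mice. Only mice 5 and 6 add a spread between lines of the same kind.

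Mitochondrial DNA is transcribed from promoters on both strands into long precursors that run through many genes. The tRNAs lie between most of the other genes, and cutting them out of the precursor frees the rRNAs and messenger RNAs. The coding genes make subunits of respiratory complexes I, III, IV and V, while the nucleus encodes the remaining subunits, the proteins of the mitochondrial ribosome and the enzymes of mitochondrial transcription.

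Pieces of mitochondrial DNA have also been copied into the nucleus during evolution, and 1 such piece governs how 7 members can be read here. A stretch of chromosome 1 (GRCm38, minus strand) carries 7 annotated pseudogenes, each at least 99% identical to a mitochondrial coding gene over at least 250 aligned bases. Over their aligned bases, Gm28661 is identical to mt-Co2, Gm10925 to mt-Atp6, Gm28437 to mt-Co3, Gm28439 to the first 876 bases of mt-Nd4 and Gm10222 to mt-Nd4l. The other two differ at 1 base each. Gm28438 differs from mt-Nd3 by T3C over 345 bases, and Gm29216 differs from the last 483 bases of mt-Co1 by A1066T, with positions counted from 1 at the 5′ end of the mitochondrial gene. The following stretches of both pairs, from the GENCODE M21 transcripts (GRCm38), show with a capital the base that differs within the aligned part. They lie at chrM:9459-9486 (plus strand), chr1:24613092-24613119 (minus strand), chrM:6368-6418 (plus strand) and chr1:24616160-24616197 (minus strand). For mt-Co1 the stretch shown is bases 1041 to 1091, and the bases of Gm29216 before its position 10 lie outside the alignment and are not compared.
mt-Nd3: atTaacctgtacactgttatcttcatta
Gm28438: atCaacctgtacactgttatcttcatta
mt-Co1: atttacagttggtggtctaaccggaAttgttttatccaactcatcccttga
Gm29216: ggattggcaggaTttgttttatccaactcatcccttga
The beginning of mt-Co3 (chrM:8607-8726, plus strand) is shown as an example of a stretch that Gm28437 shares base for base, in which no read can be assigned by its sequence.
mt-Co3: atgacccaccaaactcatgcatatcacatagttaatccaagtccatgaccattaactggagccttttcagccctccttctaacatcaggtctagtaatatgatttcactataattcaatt

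Members also overlap one another. The last 43 bases of mt-Atp8 are the first of mt-Atp6 on the same strand, the last 7 of mt-Nd4l begin mt-Nd4, and the last 14 of mt-Nd5 lie opposite the end of mt-Nd6. The ends of these 3 genes are printed because counts there can be divided between partners. Capitals mark the bases that mt-Atp8 and mt-Nd4l share with the next gene, and for mt-Nd5 those opposite mt-Nd6 (chrM:7907-7969, chrM:10137-10173 and chrM:13522-13565, plus strand).
mt-Atp8: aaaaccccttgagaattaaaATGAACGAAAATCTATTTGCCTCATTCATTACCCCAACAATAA
mt-Nd4l: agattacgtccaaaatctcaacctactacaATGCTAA
mt-Nd5: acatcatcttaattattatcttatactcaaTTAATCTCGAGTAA
Libraries were made with a stranded kit, but the strand setting of the counting is not given in the sources used here. Reads of mt-Nd6, the only coding gene among 9 members on the light strand, can therefore not be told apart with certainty from reads of the precursor made from the other strand.

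None of the 22 tRNA genes had a count in any of the 16 lines. They are 59 to 75 bases long, and their effective length, the number of places where a fragment of the library's size could start, is listed as 0 in all 16 lines. The zeros therefore follow from the fragment size and say nothing of the amount of tRNA. The shortest and the longest of the 22, at chrM:11613-11671 and chrM:2676-2750 (plus strand), were a serine and a leucine tRNA. The others were mt-Tf, mt-Tv, mt-Ti, mt-Tq, mt-Tm, mt-Tw, mt-Ta, mt-Tn, mt-Tc, mt-Ty, mt-Ts1, mt-Td, mt-Tk, mt-Tg, mt-Tr, mt-Th, mt-Tl2, mt-Te, mt-Tt and mt-Tp.
mt-Ts2: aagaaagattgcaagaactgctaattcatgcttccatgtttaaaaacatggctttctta
mt-Tl1: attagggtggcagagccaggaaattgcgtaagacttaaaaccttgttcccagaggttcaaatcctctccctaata
The remaining 15 members, the 13 coding and the 2 rRNA genes, were measured in every line and all 15 passed the filter on low counts.

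Levels are given as shares of the counts outside 3 genes that collect reads of cytoplasmic rRNA (CT010467.1, AY036118 and Lars2), in percent or as CPM, here counts per 1000000 of those counts. These 3 genes held 0.0185% to 72.7% of a metastasis library (median 12.3%) and 0.0463% to 29.9% of a tumor library (median 0.272%). The metastasis line M15 (72.7%) and the tumor line T6 (29.9%) held the most. Total counts per library ran from 24624420 (M15) to 49965492 (T3), and the counts outside the 3 genes from 6721988 (M15) to 49935634 (T3). Epithelial markers were found in every line (8 of 8, summing to 5313 to 10669 CPM in metastasis lines and 5125 to 7904 in tumor lines). The summed markers of immune cells, endothelium, fibroblasts, acinar cells and muscle reached at most 6.41 CPM in metastasis lines and 5.05 in tumor lines. A hepatocyte list summed to 0.277 to 7.67 CPM in metastasis lines and 7.42 to 132 in tumor lines. In tumor lines this was almost only Ttr (6.89 to 132 CPM), with Alb at most at 1.44. Apoa1 went the other way, reaching 3.10 CPM in metastasis lines (M6) and 0.416 in tumor lines (T69a). The part of this list in the results below was not tested. No 2 libraries were identical, and fewer mitochondria cannot be told apart from less RNA per mitochondrion in these bulk cultures.

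Most of the mitochondrially encoded RNA was rRNA in both kinds of line. The 37 genes together held 12.8% to 18.6% of the counts in metastasis lines (median 15.7%) and 14.7% to 24.2% in tumor lines (median 17.8%). The highest share was that of T6 and the lowest that of M10, and the groups overlapped. Here and below, the difference of a mouse is the mean log2 value of its metastasis lines minus that of its tumor lines. On this measure the metastasis lines were lower in 5 of 6 mice, with a mean log2 difference of -0.29 ± 0.28 (SD, n = 6 mice). The difference was largest in mouse 4 at -0.71 (M10 12.8%, T23 20.8%) and was 0.02 in mouse 6, the only mouse with a higher share in its metastasis lines. The SD over mice was nearly as large as the mean. As a share of all counts, the 3 collecting genes included, the mean difference was -0.51 ± 0.38.

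**Figure D1:**
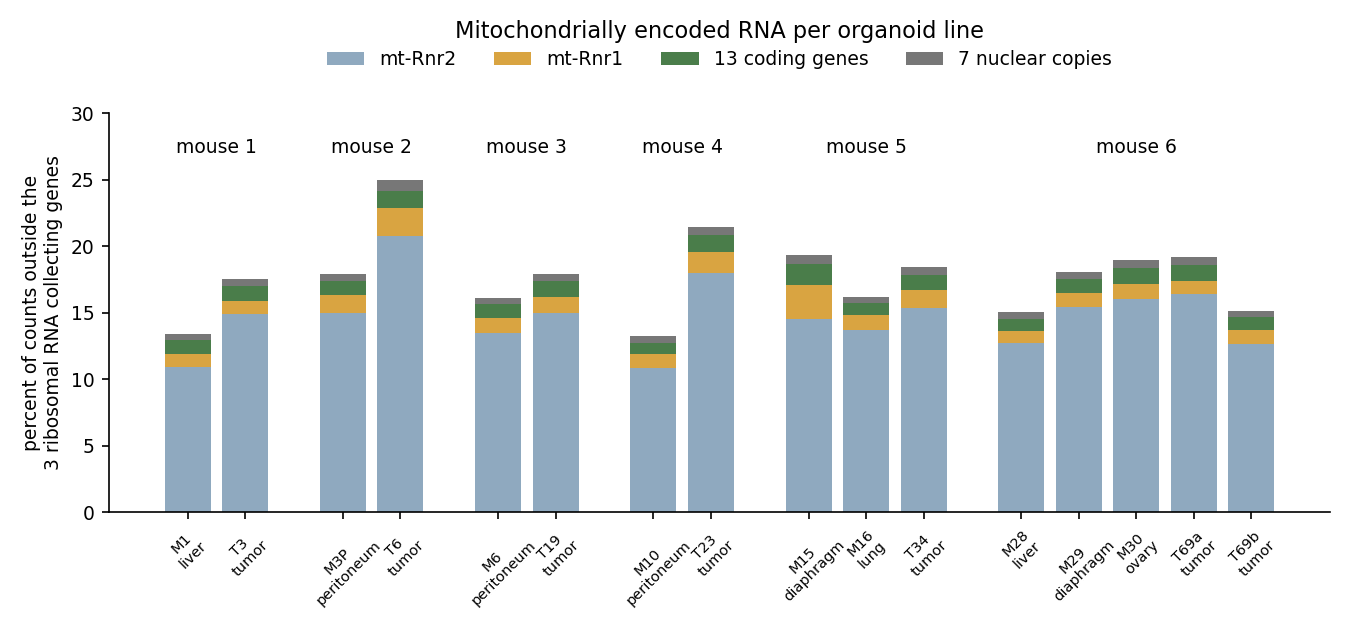
Percent of the counts outside the 3 rRNA collecting genes held by mt-Rnr2, mt-Rnr1, the 13 coding genes and the 7 chromosome 1 copies, as stacked bars, 1 bar per organoid line, with the metastasis lines left of the tumor lines within each mouse. T6 of mouse 2 has the tallest bar, and in mice 1 to 4 the metastasis line lies below the tumor line.

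mt-Rnr2, the large rRNA of the mitochondrial ribosome, was the most abundant member in every line. It held 77.9% to 87.9% of the mitochondrial counts in metastasis lines (median 86.2%) and 85.9% to 88.2% in tumor lines (median 86.3%). mt-Rnr1, the small rRNA, held 5.98% to 13.7% in metastasis lines (median 7.19%) and 5.50% to 8.64% in tumor lines (median 7.19%). M15 gave both the lowest share of mt-Rnr2 and the highest of mt-Rnr1. Per length, as TPM, mt-Rnr2 stood 3.16 to 8.13 times above mt-Rnr1 in metastasis lines and 5.52 to 8.94 times in tumor lines, although the mitochondrial ribosome has 1 of each. The lowest ratio was that of M15, and the next lowest, 5.52, that of T6. Libraries had been depleted of rRNA with a kit, and what the depletion removed of each rRNA was not tested.

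The 13 coding genes together held 0.862% to 1.55% of the counts in metastasis lines (median 1.05%) and 0.948% to 1.32% in tumor lines (median 1.16%). Their 7 chromosome 1 copies held a further 0.450% to 0.696% in metastasis lines (median 0.487%) and 0.501% to 0.827% in tumor lines (median 0.574%).

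The counts of a pair were divided differently from gene to gene. mt-Co2, subunit 2 of cytochrome c oxidase, received 7.41% to 10.0% of the counts of its pair with Gm28661 in metastasis lines and 7.32% to 11.5% in tumor lines. mt-Co3, subunit 3 of the same enzyme, received 12.4% to 21.6% in metastasis lines and 11.7% to 18.1% in tumor lines. For both genes most reads went to the copy in every line. mt-Atp6, the proton channel subunit a of ATP synthase, received 14.8% to 31.2% in metastasis lines and 14.9% to 34.3% in tumor lines. mt-Nd4l, a small membrane subunit of complex I, received 22.0% to 53.2% in metastasis lines and 19.4% to 57.1% in tumor lines. mt-Nd3, another complex I subunit, received 7.28% to 57.5% in metastasis lines (median 48.8%) and 25.6% to 59.8% in tumor lines (median 51.4%). The 2 lowest values of mt-Nd3 were those of M15 (7.28%) and T6 (25.6%), the libraries richest in rRNA reads. mt-Co1 and mt-Nd4, which are longer than their copies, kept at least 97.3% and at least 99.1% of their counts in every line. The levels of the 5 divided genes are therefore given below both as deposited and with the copy added.

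**Figure D2:**
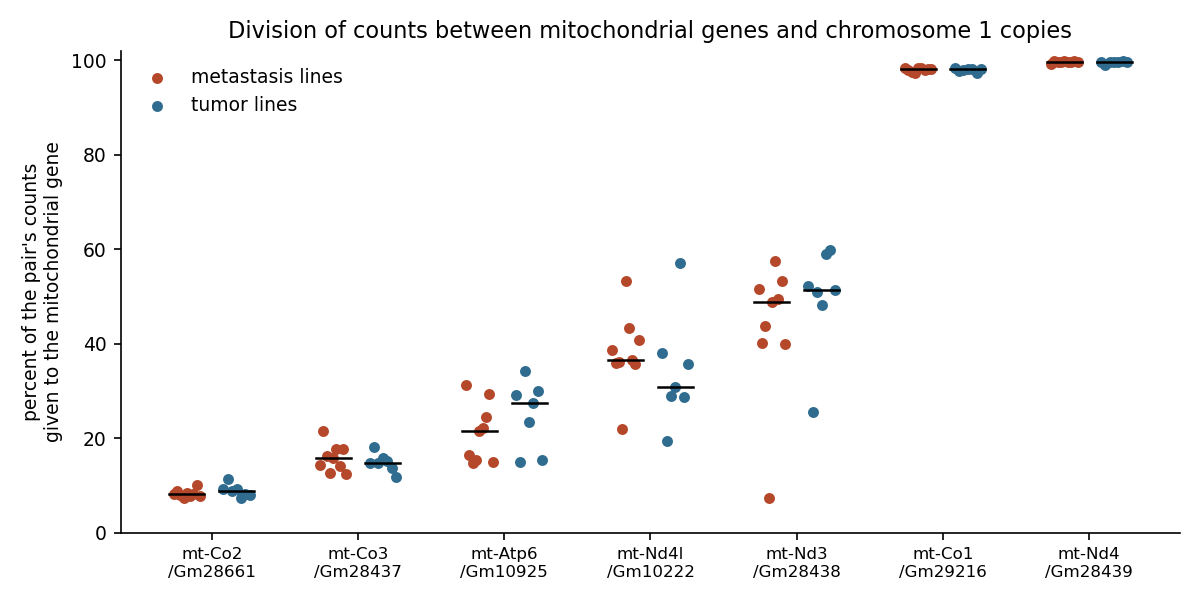
Percent of each pair's counts assigned to the mitochondrial gene rather than to its chromosome 1 copy, 1 point per organoid line, metastasis lines left of tumor lines, with black lines at the group medians. mt-Co2 lies between 7.32% and 11.5%, mt-Nd3 spreads from 7.28% to 59.8%, and mt-Co1 and mt-Nd4 lie at 97.3% or above.

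Adding the copies changed the order of the coding genes per length. As deposited, the mean TPM, rescaled to the same total without the 3 collecting genes, was 5586 ± 819 for mt-Co1, 2855 ± 824 for mt-Atp8, 2308 ± 436 for mt-Nd1, 1163 ± 280 for mt-Cytb, 870 ± 255 for mt-Co3 and 428 ± 120 for mt-Co2 (SD, n = 16 lines). The other divided genes had 820 ± 224 (mt-Nd3), 386 ± 96.6 (mt-Atp6) and 69.8 ± 30.8 (mt-Nd4l) as deposited. With copies added, mt-Co1 had 6082 ± 928, mt-Co3 5653 ± 1228 and mt-Co2 4990 ± 927, so the subunits of cytochrome c oxidase became the 3 highest coding genes. mt-Co1 lay above mt-Co3 in 12 of 16 lines and mt-Co3 above mt-Co2 in 13 of 16, so these neighbours did not differ in every line, while mt-Co2 lay above mt-Atp8 in 16 of 16. mt-Nd3 and mt-Atp6 followed mt-Nd1 with 1848 ± 398 and 1764 ± 457, their order holding in 11 of 16 lines. At the low end, mt-Nd2 had 318 ± 146, mt-Nd4l with its copy 214 ± 148, mt-Nd4 with its copy 171 ± 121, mt-Nd5 160 ± 77.2 and mt-Nd6 129 ± 101. mt-Nd4 lay above mt-Nd5 in 8 of 16 lines. The place of mt-Atp8 rests on an effective length of 41.5 to 50.0 bases for a gene of 204 bases, which makes its value per length uncertain.

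**Figure D3:**
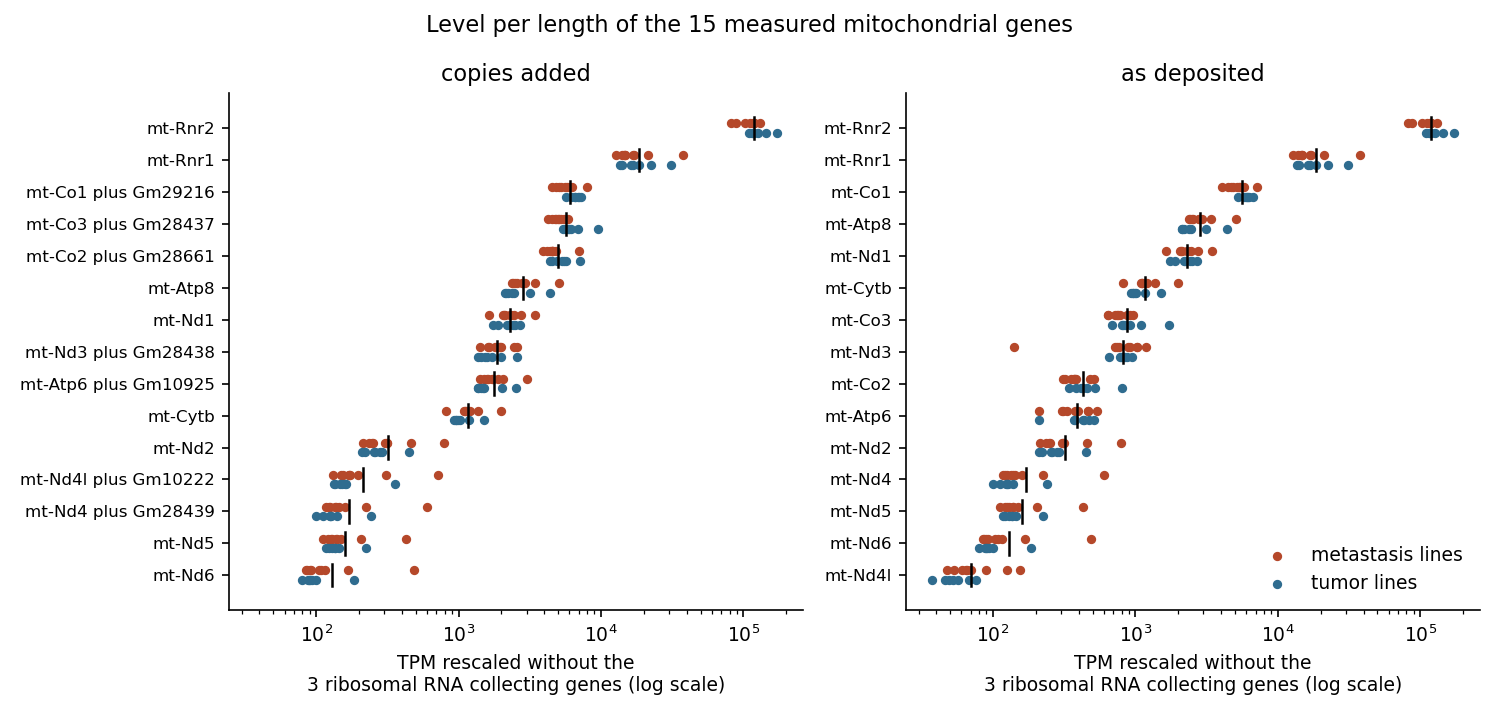
TPM rescaled without the 3 rRNA collecting genes, on a log scale, for the 15 measured members in order of their mean, with copies added (left) and as deposited (right), 1 point per line and a black bar at the mean of 16 lines. mt-Co3 and mt-Co2 stand directly below mt-Co1 with copies added, at 5653 and 4990, and at 870 and 428 as deposited, where mt-Nd3 of M15 is the isolated low point.

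Metastasis and tumor lines were compared with edgeR's quasi-likelihood test, with a term for each mouse and Benjamini-Hochberg adjustment over all genes tested. None of the 15 members passed an adjusted p of 0.05, while 16.5% of all 15573 genes tested did (6.59% higher and 9.92% lower in metastasis lines). Of the 15, 1 had an unadjusted p under 0.05 (33.6% of all genes did), and DESeq2 called 1 (25.5% of all genes), in both cases mt-Nd4l. The median log2 difference of the 15 was 0.04, beside -0.02 for all genes tested. The share of cytoplasmic rRNA reads differed between the groups as given above, and a fit with that share as a covariate also called 0 of 15 (12.1% of all genes), with 4 of 15 at an unadjusted p under 0.05 (31.9% of all genes).

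The 2 rRNAs were lower in the metastasis lines of 5 of 6 mice, by less than their error allowed to be called. mt-Rnr2 held 108127, 136808 and 160537 CPM (lowest, median and highest) in metastasis lines and 126615, 153360 and 207698 in tumor lines. Its log2 difference was -0.27 (SE 0.21, edgeR adjusted p = 0.386). mt-Rnr1 held 8730, 10986 and 25641 CPM in metastasis lines and 9742, 11919 and 20889 in tumor lines, a log2 difference of -0.12 (SE 0.20, edgeR adjusted p = 0.702). The groups overlapped for both, and the highest values of mt-Rnr1 were those of M15 and T6.

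Averaged over the metastasis lines of a mouse, the 3 subunits of complex IV, cytochrome c oxidase, were lower in most or all mice. mt-Co1, the catalytic subunit, held 5155, 5942 and 8445 CPM in metastasis lines and 5958, 7443 and 8176 in tumor lines. It was lower in 6 of 6 mice, with a log2 difference of -0.27 (SE 0.15, edgeR adjusted p = 0.228). Not every line went this way, since M15 and M30 lay above the tumor lines of their own mouse, by 0.12 and 0.17 on the log2 scale. The highest of all 16 lines was the metastasis line M15. mt-Co2 as deposited held 144, 168 and 239 CPM in metastasis lines and 145, 198 and 356 in tumor lines, and with Gm28661 added 1854, 1926 and 3109 against 1835, 2503 and 3103. As deposited it was lower in 4 of 6 mice and higher in mice 5 and 6 (by 0.07 and 0.04 on the log2 scale), with a fitted log2 difference of -0.31 (SE 0.20, edgeR adjusted p = 0.295). With the copy it was lower in 6 of 6 mice, by 0.03 to 0.72 on the log2 scale, and its fitted difference was -0.24 (SE 0.15, edgeR adjusted p = 0.298). The difference was largest in mouse 2, whose only tumor line is T6, and was -0.05, -0.03 and -0.05 in mice 1, 5 and 6. The single lines M15 and M30 again lay above the tumor lines of their own mouse, by 0.31 and 0.13.

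mt-Co3 as deposited held 345, 421 and 570 CPM in metastasis lines and 345, 483 and 901 in tumor lines. Its log2 difference was -0.30 (SE 0.18, edgeR adjusted p = 0.282), and it was lower in 5 of 6 mice. With Gm28437 added, mt-Co3 held 2215, 2717 and 3232 CPM in metastasis lines and 2944, 3389 and 4980 in tumor lines, and it was lower in 6 of 6 mice. The within-mouse log2 difference ran from -0.79 in mouse 2, whose only tumor line is T6, to -0.10 in mouse 6. Of the single metastasis lines, only M30 lay above the tumor lines of its own mouse, by 0.03 on the log2 scale. The groups overlapped, since the tumor line T69b (2944) lay below the metastasis lines M29 (2972) and M30 (3232). The log2 difference with the copy was -0.39 (SE 0.12, edgeR adjusted p = 0.0455), which makes it the only member to pass, in a fit in which 16.5% of all 15566 genes passed, 6.59% higher and 9.92% lower. The call was lost in 13 of the 16 fits that left out 1 line and kept without T69a, T69b or M30, over which the log2 difference ran from -0.47 to -0.31 and the adjusted p from 0.0225 to 0.116. It was also lost without both M15 and T6 (log2 difference -0.33, edgeR adjusted p = 0.126) and with the share of rRNA reads as a covariate (-0.43, edgeR adjusted p = 0.0523). The call was kept by DESeq2, without a term for mouse, and with counts summed per mouse and stage. Those fits called 3966 of 15566, 2221 of 15566 and 2402 of 15529 genes, in that order. The copy Gm28437 alone had a log2 difference of -0.41 (SE 0.11, edgeR adjusted p = 0.0328). It held most of the summed counts in every line, so its result is not separate from that of the sum. Summed with their copies, the 3 complex IV genes held 9631, 10662 and 14507 CPM in metastasis lines and 10852, 13592 and 15709 in tumor lines, with a mean within-mouse log2 difference of -0.32 ± 0.19 (SD, n = 6 mice).

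The 7 subunits of complex I, NADH dehydrogenase, had small positive log2 differences with copies added, from 0.04 (mt-Nd1) to 0.29 (mt-Nd4), and none passed the test. Their sum with copies held 2004, 2477 and 4733 CPM in metastasis lines and 2040, 2455 and 3207 in tumor lines, higher in 3 mice and lower in the other 3, with a mean log2 difference of 0.07 ± 0.37 (SD, n = 6 mice). mt-Nd1, which makes up most of that sum, held 1211, 1569 and 2362 CPM in metastasis lines and 1266, 1612 and 1829 in tumor lines (log2 difference 0.04, SE 0.13, edgeR adjusted p = 0.881). mt-Nd2, mt-Nd4, mt-Nd5 and mt-Nd6 had log2 differences of 0.19, 0.29, 0.11 and 0.26, with SEs of 0.22, 0.30, 0.24 and 0.32 and edgeR adjusted p values of 0.531 to 0.776. With the share of rRNA reads as a covariate all 4 turned negative, at -0.027 (mt-Nd2), -0.043 (mt-Nd4), -0.15 (mt-Nd5) and -0.11 (mt-Nd6). With 1 line or mouse left out mt-Nd4 ran from 0.042 to 0.39 and mt-Nd6 from 0.0046 to 0.36, while mt-Nd2 and mt-Nd5 changed sign in some of these fits. Each of these 4 had its highest value in M15, in mouse 5.

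mt-Nd4l was the member with the smallest p as deposited. It held 5.62, 7.54 and 17.7 CPM in metastasis lines and 4.64, 5.71 and 8.96 in tumor lines, on 119 to 419 counts per line. It was higher in the metastasis lines of 6 of 6 mice, with a log2 difference of 0.42 (SE 0.16, edgeR adjusted p = 0.0915, DESeq2 adjusted p = 0.0294). With its copy Gm10222 added it held 15.4, 19.4 and 80.3 CPM in metastasis lines and 15.7, 18.0 and 37.8 in tumor lines, and was higher in 4 of 6 mice, with a log2 difference of 0.26 (SE 0.30, edgeR adjusted p = 0.580). A shared direction in all 6 mice was thus seen in the deposited values and not in the summed ones.

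The level of mt-Nd3 in M15 depended on the handling of its copy. As deposited it held 22.2, 145 and 176 CPM in metastasis lines and 99.02, 136 and 152 in tumor lines, with a log2 difference of -0.03 (SE 0.30, edgeR adjusted p = 0.952). The lowest value, 22.2 in M15, stood far below the next metastasis line at 117. With Gm28438 added, M15 had 305 CPM, within the range of 242 to 362 of the metastasis lines (tumor lines 221 to 387), and the log2 difference was 0.14 (SE 0.11, edgeR adjusted p = 0.417).

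mt-Cytb, the only mitochondrial subunit of complex III, held 746, 1000.0 and 1686 CPM in metastasis lines and 813, 865 and 1268 in tumor lines, a log2 difference of 0.12 (SE 0.15, edgeR adjusted p = 0.613). Of the 2 ATP synthase genes, mt-Atp8 held 92.6, 110 and 202 CPM in metastasis lines and 80.5, 97.8 and 158 in tumor lines, a log2 difference of 0.10 (SE 0.18, edgeR adjusted p = 0.732). mt-Atp6 as deposited held 99.3, 160 and 241 CPM in metastasis lines and 88.0, 202 and 235 in tumor lines. It had a log2 difference of -0.18 (SE 0.24, edgeR adjusted p = 0.634) as deposited and of 0.10 (SE 0.17, edgeR adjusted p = 0.702) with Gm10925 added. With the copy it held 666, 773 and 1334 CPM in metastasis lines and 571, 685 and 1101 in tumor lines. The groups overlapped for all 3 genes.

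**Figure D4:**
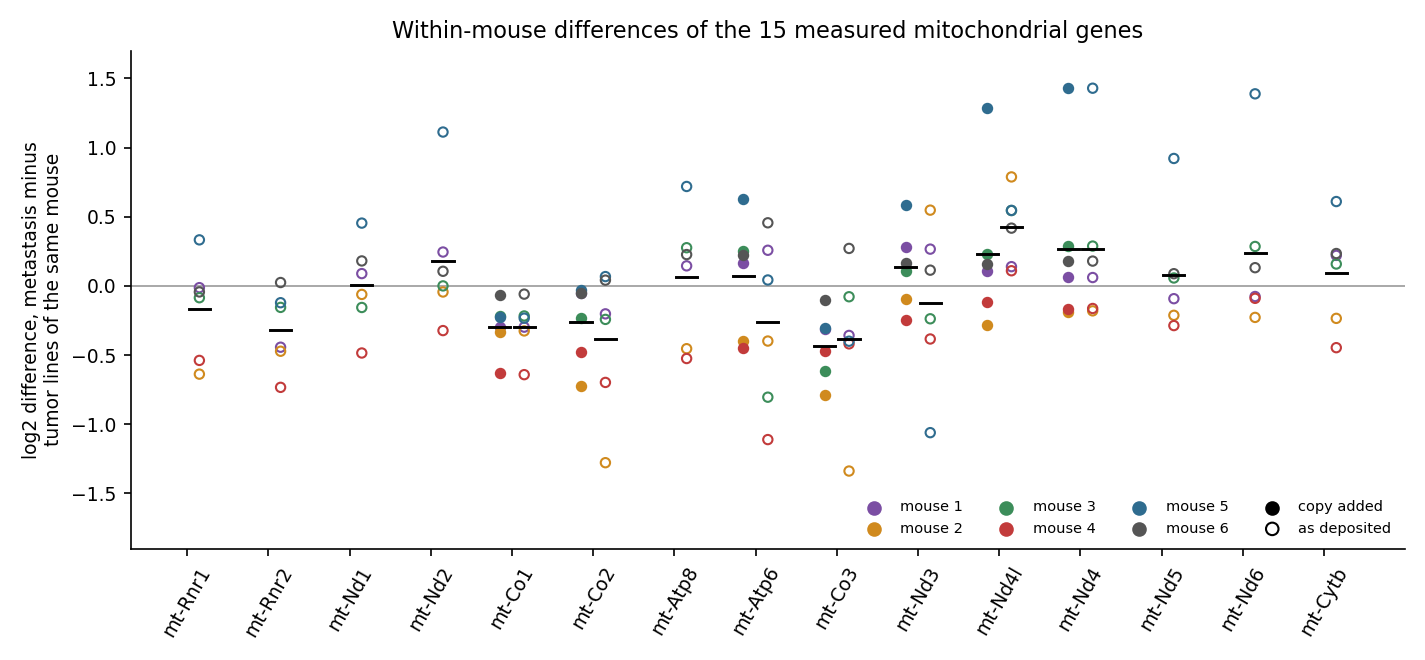
Log2 difference between the metastasis lines and the tumor lines of the same mouse for the 15 measured members, 1 point per mouse, open as deposited and filled with the copy added, with a black bar at the mean of 6 mice. All filled points of mt-Co1, mt-Co2 and mt-Co3 lie below 0, and the highest points of mt-Nd2, mt-Nd4, mt-Nd5 and mt-Nd6 are those of mouse 5.

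Part of these values rests on M15 and T6. Against the median of the other 14 lines, M15 held 5.20 times as much mt-Nd6, 4.61 times as much mt-Nd4, 3.22 times as much mt-Nd5 and 2.92 times as much mt-Nd2. With copies added, mt-Nd4l stood at 4.44 times that median in M15, while mt-Co1 stood at 1.32 times, mt-Nd3 at 1.14 times, mt-Rnr2 at 0.974 times and mt-Co3 at 0.919 times. As deposited, M15 lay above all of these 14 lines for 10 of 15 members. With copies added, the 5 members with the lowest mean level per length (mt-Nd2, mt-Nd4l, mt-Nd4, mt-Nd5 and mt-Nd6) were also the 5 that stood highest in M15 relative to the other lines. T6 lay above the same 14 lines for 11 of 15 members as deposited, and stood at 1.91 times the median for mt-Nd6 and 1.81 times for mt-Nd4. In raw counts M15 had 1005 reads of mt-Nd6 and T6 had 990, beside 990 to 1553 over all 16 lines, although M15 had the fewest counts outside the 3 collecting genes. The part of the rRNA reads in this pattern was not tested.

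**Figure D5:**
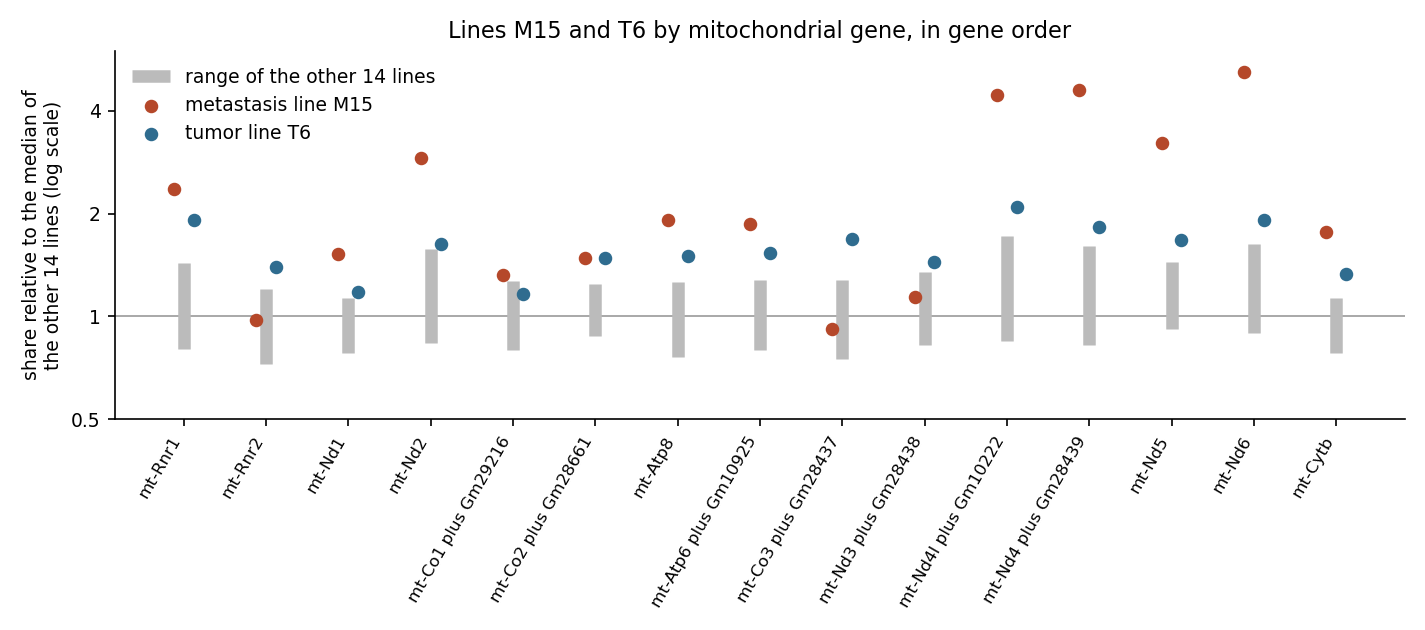
Share of each measured member in M15 and T6 relative to the median of the other 14 lines (log scale), copies added, in the order of the genes on the mitochondrial genome, with grey bars for the range of those 14 lines. M15 reaches 5.20 times the median at mt-Nd6 and 4.62 times at mt-Nd4 and lies below 1 at mt-Rnr2 and mt-Co3.

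No member passed the test among sites of metastasis. In the fit with a term for each mouse and each site, 0 of 15 members passed an adjusted p of 0.05 in edgeR's test of a difference among the 5 sites, as did 0 of all 15573 genes (0%). No member had an unadjusted p under 0.05 (1.71% of all genes did). DESeq2 called 0 of 15 (0.302% of all genes), with 3 at an unadjusted p under 0.05 (mt-Rnr1, mt-Nd1 and mt-Nd4), as had 3.56% of all genes. Relative to the tumor lines of their own mouse, the summed mitochondrial share of the 3 peritoneal lines differed by -0.71 to -0.15 on the log2 scale and that of the 2 liver lines by -0.39 and -0.18. The 2 diaphragm lines differed by 0.06 and 0.09, the lung line by -0.18 and the ovary line by 0.15. mt-Co3 with its copy ranged from -0.79 (M3P, set against T6) to -0.47 in the peritoneal lines, and its value in the ovary line was 0.03. The peritoneal lines are the only metastasis lines of mice 2, 3 and 4, so a difference by peritoneum cannot be told apart from one by mouse. The lung and the ovary have 1 line each. In simulated data of this size the site test found 6 of 100 genes set to differ 2-fold. It found 90 of 100 set to differ 4-fold, and 10.3% of its calls were false. These figures are not split by site. How well a difference of the lung or the ovary line alone could be found was not tested.

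No member passed edgeR's test among mice either. Of 15 members, 0 passed, beside 24 of 15573 genes (0.154%), and 1 member, mt-Nd4l, had an unadjusted p under 0.05 (17.1% of all genes did). DESeq2 called 1 of 15, also mt-Nd4l (adjusted p = 0.00762), and 12% of all genes. With copies added, 0 of 15 members had an unadjusted p under 0.05 in edgeR.

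The nuclear genes of mitochondrial gene expression were compared in the fit on counts as deposited, in which 16.5% of all genes passed. Of 11 genes listed here under mitochondrial transcription, not all of which act only there, 0 were higher and 2 lower in metastasis lines. They were Polrmt, the mitochondrial RNA polymerase (log2 difference -0.53, SE 0.13, edgeR adjusted p = 0.0200), and Mterf4, which acts with Nsun4 on the ribosome (-0.35, SE 0.10, edgeR adjusted p = 0.0337). Of 20 genes of mitochondrial RNA processing, 0 passed in edgeR, with 2 at an unadjusted p under 0.05, and DESeq2 called 1. Fastkd1, which acts on mitochondrial messenger RNA, had the smallest edgeR adjusted p at 0.0571. Of 16 rRNA and tRNA modification genes, Trnt1, which adds the CCA end to tRNAs, rose by 0.83 on the log2 scale, and Nsun4 and Nsun3, which methylate mitochondrial rRNA and tRNA, had log2 differences of -0.72 and -0.55. Of 16 genes of mitochondrial DNA upkeep, 2 were lower, Lig3 (a DNA ligase) and Tk2 (a thymidine kinase), both with log2 differences of -0.44.

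Of 78 genes with the Mrpl and Mrps symbols given to proteins of the mitochondrial ribosome, 1 was higher (Mrpl49) and 2 lower (Mrps36 and Mrps12) in metastasis lines, which is 3.85%. The symbol alone does not establish that each of them, Mrps36 included, is part of the ribosome. Of 22 genes of mitochondrial tRNA synthetases and related enzymes, 2 were lower, Ears2 and Nars2 (log2 differences -0.65 and -0.42). The 22 include Lars2, which collects cytoplasmic rRNA reads here. Its log2 difference of 4.43 (edgeR adjusted p = 0.0998) is therefore not read as that of a synthetase. Of the 9 regulators of mitochondrial biogenesis that were tested, 1 was higher, the coactivator Pprc1 (log2 difference 0.51, SE 0.11, edgeR adjusted p = 0.0121). Genes listed here as nuclear subunits were compared for the complexes that the members belong to. Again a listed symbol alone does not establish that each gene is a subunit of its complex. For complex I, 1 of 37 was higher and 1 lower (Ndufs8 0.25 and Ndufc2 -0.43). For complex III, 1 of 9 was lower (Uqcrh, -0.41). For complex V, 0 of 17 passed (edgeR, with 2 at an unadjusted p under 0.05 and 1 called by DESeq2). For complex IV, 1 of 13 was lower, Cox6b2, a subunit isoform best known from testis (log2 difference -3.57, SE 0.54, edgeR adjusted p = 0.00316). Complex II, whose subunits are all nuclear, had 1 of 4 lower, Sdha (-0.46). Without M15 and T6, Pprc1 and Cox6b2 were the only genes of these nuclear lists that edgeR called, in a fit that called 5.02% of all 15817 genes tested.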

How the data were processed

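Per the labels' protocols, total RNA with an integrity number above 9 was depleted of ribosomal RNA and made into stranded libraries. The submitters' processing notes name FastQC 0.11.8, the aligner STAR 2.6.0c, the quantifier RSEM 1.3.1 and the build GRCm38.p6. Per the file headers, the deposited gene tables hold expected counts, which RSEM estimates by dividing reads among similar genes, and TPM, which divides by effective length. The isoform tables were not used. Of 55487 gene identifiers, 55394 were matched to GENCODE M21, and the 93 others held at most 0.00356% of a library's counts.

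Expected counts as deposited were rounded and fitted with edgeR 4.0.16's quasi-likelihood test in R 4.3.3, with TMM factors, filterByExpr by stage, and terms for mouse and stage or for mouse and site. The test among mice took the mouse terms of the fit with mouse and stage. The mouse label pairs the lines, since metastasis and tumor lines of 1 number come from the same animal. Calls are at a Benjamini-Hochberg adjusted p of 0.05 over all genes tested. Alternatives used DESeq2 1.42.0 and limma 3.58.1 on log2(TPM + 1). In simulated counts of 15500 genes the stage test recovered 99 of 100 genes changed 2-fold. These genes all had the same set spread, and mice did not differ in them. The figure does not show how well smaller differences, such as those of the members, could be found.

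Copies were found by aligning the mitochondrial transcripts to all GENCODE M21 transcripts (at least 99% identity, 250 aligned bases and 90% of the copy). Their addition to the members was chosen after seeing the data. Members, gene lists and markers were chosen with earlier results of these data known. All 37 members are named, with up to 3 genes of lowest p per nuclear list, the 3 collecting genes and the copies.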

Additional observations from a re-analysis of the deposited data

Results flagged for a closer look

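Of 52 sets of values (the measured members, their sums with copies and summed shares, in the metastasis lines or the tumor lines), 21 had a line whose log2 share stood apart from the rest of its group by Dixon's criterion, where chance gives about 5%. The sets overlap, since a gene and its sum with a copy share counts. M15 accounts for 12 of the 21 and T6 for 6, and they are the 2 libraries richest in cytoplasmic rRNA reads (72.7% and 29.9%), whose part in these values was not tested. All values are CPM outside the 3 collecting genes.

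Among metastasis lines, M15 was highest for mt-Rnr1 (25641, next line 13430), mt-Nd2 (596, next 322), mt-Atp8 (202, next 117), mt-Nd4 (627, next 217), mt-Nd5 (611, next 274), mt-Nd6 (150, next 46.9) and mt-Cytb (1686, next 1078). It was lowest for mt-Nd3 as deposited (22.2, next 117), which with Gm28438 added no longer stood apart. With copies added M15 was highest for mt-Atp6 (1334, next 836), mt-Co2 (3109, next 2387), mt-Nd4 (630, next 218) and mt-Nd4l (80.3, next 31.1).

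Among tumor lines, T6 was highest for mt-Nd2 (332, next 226), mt-Nd4 (246, next 148), mt-Nd5 (317, next 212) and mt-Nd6 (54.9, next 31.0), and with copies added for mt-Nd4 (249, next 149) and mt-Nd4l (37.8, next 18.5). The tumor line T69b was lowest for mt-Co1 as deposited (5958, next 7232) and with its copy (6073, next 7346), and for mt-Atp6 as deposited (88.0, next 164).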

How the results depend on the processing

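For stage, 0 of 15 members were called as deposited, and likewise with no replicate block (no term for mouse) and in the 22 fits that left out 1 line or 1 mouse, over which the number called ran from 0 to 0. DESeq2 called 1 (mt-Nd4l) and adding the copies 1 (mt-Co3). With copies added the count was 0 without the 2 libraries richest in rRNA, 0 with the rRNA share as a covariate and 0 to 1 over lines left out. With copies added it was 1 each with no replicate block, with DESeq2 and with counts summed per mouse and stage. For mouse, DESeq2 called 1 where edgeR called 0, and 0 to 0 over lines left out, as for site. Genes called by stage numbered 2571, against 3968 by DESeq2, 1184 by limma, 794 without those 2 libraries and 766 to 3910 with lines or mice left out.

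Of 510 refits of single members as deposited, 34 gave the opposite sign, none of them called. With the covariate, log2 differences were -0.061 for mt-Atp8 and mt-Nd1, -0.0075 for mt-Cytb, -0.027 for mt-Nd2, 0.27 for mt-Nd3, -0.043 for mt-Nd4, -0.15 for mt-Nd5 and -0.11 for mt-Nd6. With copies added as well they were -0.043 for mt-Atp6, -0.044 for mt-Nd4 and -0.084 for mt-Nd4l. Counts summed per mouse gave -0.013 for mt-Atp8, -0.061 for mt-Nd1, 0.062 for mt-Nd3, -0.025 for mt-Nd5 and -0.0031 for mt-Atp6 with its copy. limma gave -0.033 for mt-Atp8, -0.048 for mt-Cytb, -0.13 for mt-Nd1 and -0.070 for mt-Nd5. Without the 2 libraries they were -0.0049 for mt-Nd1, 0.042 for mt-Nd3 and -0.010 for mt-Nd5. Copies turned mt-Atp6 to 0.10 and mt-Nd3 to 0.14. With lines or mice left out, mt-Atp8 ran from -0.034 to 0.22, mt-Nd1 from -0.057 to 0.14, mt-Nd2 from -0.0067 to 0.30, mt-Nd3 from -0.25 to 0.13 and mt-Nd5 from -0.077 to 0.20, and mt-Atp6 with its copy was lowest at -0.013. The causes were not tested.

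The summed share differed by -0.36 to -0.21 (log2) with lines or mice left out and by -0.51 to -0.24 with the other denominators, TPM, copies or the 2 libraries left out. Depth limits mt-Nd4l most, at 119 counts in the shallowest case, and M15 leaves 6721988 counts outside the 3 collecting genes.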
